A study of Mus musculus with 14 samples.

Results

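Hearts that received YAP5SA and MEF2A viruses together were compared with Control hearts across all expressed genes. The comparison took both libraries labelled YAP5SA_MEF2A and all 5 Control libraries, 7 of the 14 libraries in the study, chosen by their group label alone. It covered the 17987 of 54446 annotated genes that passed a filter on low counts. The mice were wild-type ICR, an outbred stock, and hearts were taken on postnatal day 12. PCM1, a protein of the cardiomyocyte nuclear rim, was used to enrich the nuclei, and polyadenylated nuclear RNA was sequenced. On postnatal day 7 the treated mice had been given AAV9, an adeno-associated virus that reaches the heart, by intraperitoneal injection. YAP5SA_MEF2A mice received AAV9:cTnT-YAP5SA and AAV9:cTnT-hMEF2A at 1E11 genome copies of each. The cTnT (cardiac troponin T) promoter directs both transgenes to cardiomyocytes. Control mice received no AAV, so each difference below holds the capsid, its summed dose and both factors together, and these cannot be told apart. The study also has 3 libraries with YAP5SA alone and 4 with MEF2A alone, at the same dose of their one virus. Nothing in the labels ties each library to an animal of its own. The p-values therefore reflect how far these libraries scatter, part of which may be technical.

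YAP is a coactivator that the kinases of the Hippo pathway keep out of the nucleus. In YAP5SA the serines those kinases phosphorylate are replaced by alanine, so it stays nuclear and works through TEAD DNA-binding factors. MEF2A is a DNA-binding factor of muscle whose A/T-rich sites lie near many contractile and metabolic genes. In the days after birth, mouse cardiomyocytes stop dividing, grow, swap fetal for adult contractile isoforms and turn to fat oxidation in mitochondria.

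Library totals ran from 16171068 to 24027622 counts in Controls and were 19430731 and 19097014 in YAP5SA_MEF2A 1 and 2. The share of mitochondrially encoded genes was 60.7% and 67.5% in the batch 1 Controls (1 and 2) and 5.54%, 6.34% and 13.9% in the batch 2 Controls (3, 4 and 5). It was 6.10% and 5.35% in the YAP5SA_MEF2A libraries, which were both in batch 1. The difference in means was -25.1 percentage points (exact two-sided permutation p = 0.19, the smallest possible being 0.0952). It was -58.4 points within batch 1. Controls 1, 2 and 3 were male by their Y-linked counts, whereas Controls 4 and 5 and both YAP5SA_MEF2A libraries were female by Xist. In batch 1 the viruses, sex and mitochondrial share therefore move together and cannot be told apart. In batch 2 there is no YAP5SA_MEF2A library, and the comparison with Controls 3 to 5 rests on a batch term estimated over all 14 libraries.

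In YAP5SA_MEF2A hearts 244 genes changed against Control, 1.36% of those tested (edgeR quasi-likelihood test, Benjamini-Hochberg adjusted p under 0.05). Of these, 209 genes (1.16%) rose and 35 (0.195%) fell. The rises were the larger changes: 94 exceeded a log2 fold change of 2, while 6 falls passed -2. The median change was 1.81 among genes that rose, -1.42 among genes that fell and 0.01 over all genes tested. Levels are given as CPM, read counts per unit of TMM-scaled library size, and fold changes as fitted log2 values with the batch term. In 208 of the 209 rises both treated libraries lay above all 5 Controls, and in 34 of the 35 falls they lay below all of them. Over all genes tested, 2675 (14.9%) lay above and 1516 (8.43%) below all Controls, together 4191 genes (23.3%). Of the called genes 233 were protein coding, 12 were on X and 0 on Y. The matching shares over all genes tested were not counted, so these numbers do not bear on a difference in sex. Scaling by library totals instead of TMM moved the median of all genes from 0.01 to 0.84 and the calls to 412 rises and 0 falls. Every fall below is therefore relative to the rest of the transcriptome. Of 46 gene lists, 27 had a median below 0, and with library totals 23 of these turned positive, all but the mitochondrially encoded, MHC class I, erythroid and adipocyte lists. A list median under 0.84 with library totals still lay below that of all genes. Without Controls 1 and 2, 12 of the 27 turned positive. With Controls 1 and 2 left out 138 genes were called, and with a sex term 130. Without Controls 1 and 2 and YAP5SA 3 the count was 43, and of the 59 called genes named here 12 passed (Amotl2, Asap1, Myh8, Cobl, Zbtb8b, Eif1a, Zim1, Col12a1, Col4a4, Plagl1, Wt1 and Phf24). Some list medians went from above 0 to below 0. In batch 1 alone these were the epicardial, extracellular matrix, fetal and stress, macrophage, dystrophin complex and DNA replication lists. Without Controls 1 and 2 they were the cardiac transcription factor, imprinted, neuregulin and DNA replication lists. With a sex term they were the G1 cyclin and DNA replication lists. The count was 142 without Control 1, 89 without YAP5SA_MEF2A 1 and 90 without YAP5SA_MEF2A 2.

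**Figure D1:**
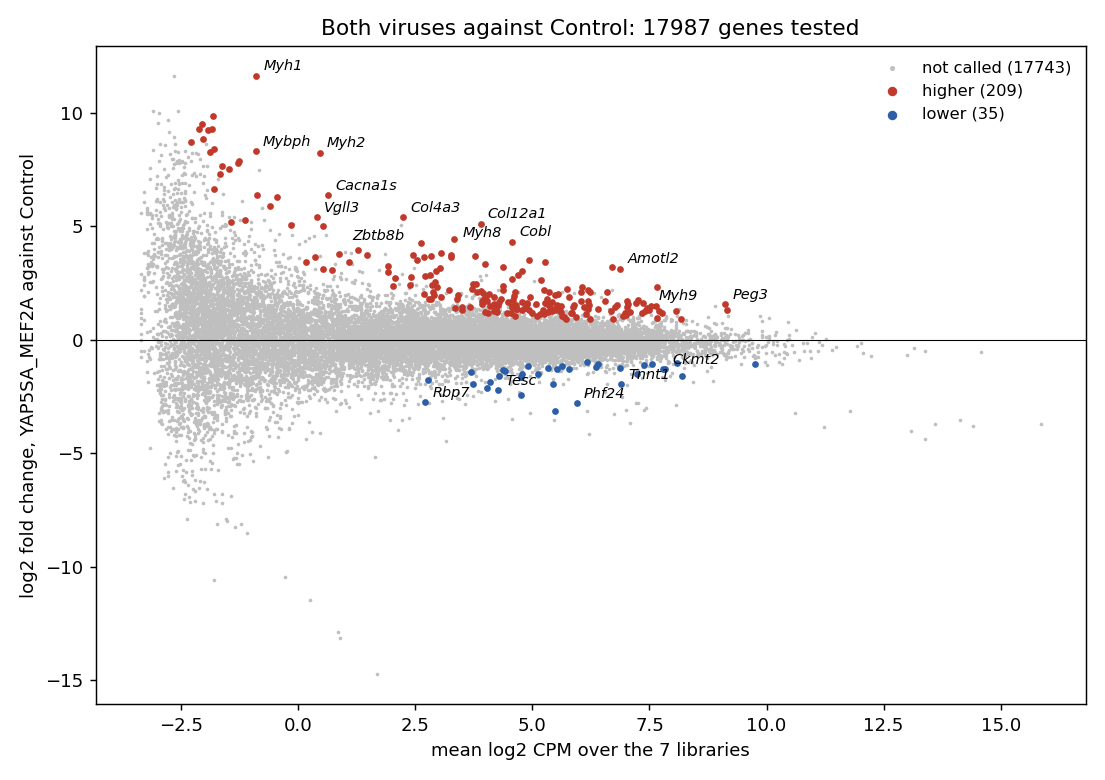
Fitted log2 fold change of YAP5SA_MEF2A against Control (vertical axis) by mean log2 CPM over the 7 libraries (horizontal axis), 1 point per gene tested. Red points are the 209 genes that rose, blue points the 35 that fell and grey points the other 17743, so called changes lie mostly above 0.

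Transcripts of the delivered factors were read first. Mouse Yap1 was at 68.5, 60.9, 49.9, 63.5 and 77.3 CPM in Controls 1 to 5 and at 70.2 and 79.4 CPM in YAP5SA_MEF2A 1 and 2. The groups overlapped, and the log2 difference was 0.05 ± 0.24 (SE, adjusted p = 0.96). Mouse Mef2a, with 542, 573, 607, 551 and 509.5 CPM in Controls, stood at 484 and 562 CPM in the treated libraries, again overlapping, with a difference of -0.23 ± 0.24 (SE, adjusted p = 0.747). Human MEF2A reads and transgene reads without native untranslated ends may not be counted on the mouse genes, so these values neither show nor deny delivery.

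Among 21 tested genes of a YAP and TAZ target signature 6 rose and 0 fell, with a median log2 fold change of 0.78. Amotl2, an angiomotin family protein that binds and restrains YAP, was at 36.6, 42.1, 95.3, 87 and 77 CPM in Controls and at 535 and 574 CPM in treated hearts. The treated libraries stood above all Controls, with a log2 fold change of 3.13 ± 0.42 (SE, adjusted p = 9.06e-04). Tgfb2, a secreted TGF-beta ligand, measured 11.6, 7.3, 9.43, 6.19 and 8.63 CPM in Controls against 42.9 and 54.1 CPM, again without overlap, a log2 fold change of 2.48 ± 0.34 (SE, adjusted p = 5.90e-04). Asap1, a GTPase-activating protein of focal adhesions, went from a Control range of 100.1 to 147 CPM to 316 and 378 CPM, a log2 fold change of 1.61 ± 0.24 (SE, adjusted p = 9.62e-04). These 3 calls held without any 1 library. The matricellular Ccn2 (CTGF), a customary YAP readout, was at 31.6 to 62.6 CPM in Controls and at 201 and 277 CPM in treated hearts, a log2 fold change of 2.22 ± 0.47 (SE, adjusted p = 0.0349). Its call ended without Control 1, 2 or 4, MEF2A 4, YAP5SA 3 or either treated library (adjusted p 0.0517 to 0.359). Crim1, a membrane protein that binds bone morphogenetic proteins, rose by a log2 fold change of 2.36 (adjusted p = 0.0143), and Rbms3, an RNA-binding protein, rose by a log2 fold change of 1.39 (adjusted p = 0.0219). Without Control 1 or either treated library adjusted p was 0.069 to 0.114 for Crim1 and 0.0816 to 0.344 for Rbms3. Of these 6, Amotl2 and Tgfb2 also passed without Controls 1 and 2 together; Asap1 was then at adjusted p = 0.0524, Crim1 at 0.0939, Rbms3 at 0.112 and Ccn2 at 0.201. With a sex term Ccn2 (0.132) and Rbms3 (0.0638) no longer passed.

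Other customary YAP targets did not pass. Ccn1 (CYR61) was at 60.8, 19.2, 33.1, 50.2 and 42.4 CPM in Controls and at 102 and 90.7 CPM in treated hearts, above all Controls, yet its log2 difference of 1.07 ± 0.59 had an adjusted p of 0.474. Ankrd1, a stress-responsive cardiac repeat protein, ranged over 753 to 2595 CPM in Controls, with Control 3 highest, and was at 1897 and 2466 CPM in treated hearts. That is an overlap with Control 3 alone, and the difference was 0.78 ± 0.58 (SE, adjusted p = 0.626). Axl, a receptor tyrosine kinase, differed by a log2 fold change of 0.01 (adjusted p = 0.996).

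Of 29 tested genes of the Hippo pathway and its TEAD partners 4 rose and 0 fell, with a median log2 fold change of 0.28. Vgll3, a vestigial-like cofactor that competes for TEAD, was nearly silent at 0.68, 0, 0.816, 0.135 and 1.19 CPM in Controls and reached 19.2 and 17.1 CPM, a log2 fold change of 5.40 ± 0.73 (SE, adjusted p = 0.00108). Wwc1 (KIBRA), a scaffold that activates the Hippo kinases, went from 1.81, 2.35, 5.63, 2.32 and 4.39 CPM to 40 and 38.7 CPM, a log2 fold change of 3.65 ± 0.49 (SE, adjusted p = 6.81e-04). Neither gene's groups overlapped, and both calls held without any 1 library, without Controls 1 and 2 (adjusted p = 0.0178 and 0.0346) and with a sex term. Ajuba, a LIM protein that inhibits LATS kinases, rose by a log2 fold change of 1.81 (adjusted p = 0.0214), and Fat1, a giant cadherin upstream of Hippo, rose by a log2 fold change of 1.49 (adjusted p = 0.024). Ajuba lost its call without Control 1 or either treated library (adjusted p 0.0803 to 0.22) and Fat1 without Control 1 or 2 or either treated library (0.0764 to 0.236); neither passed without Controls 1 and 2 (0.145 and 0.253) or with a sex term (0.109 and 0.127). The TEAD genes themselves were not called: Tead1 differed by a log2 fold change of 0.58 (adjusted p = 0.262) and Tead4 by 1.78 (adjusted p = 0.0935), and the kinase gene Lats2 by 0.94 (adjusted p = 0.0835).

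Windows before a RefSeq start of Vgll3 and of Amotl2 are shown because both genes rose and both windows hold the TEAD core motif. Each is the 250 bases upstream of a RefSeq transcript start on GRCm38.p6, read 5′ to 3′ on the plus strand, which is the strand of both genes. Capitals mark GGAATG read on the reverse strand (CATTCC), 63 bases upstream in Vgll3 (chr16:65814939-65815188) and 65 bases upstream in Amotl2 (chr9:102717554-102717803). The Amotl2 window lies inside the annotated gene (chromosome 9, 102716672 to 102733418), not before it.
Vgll3: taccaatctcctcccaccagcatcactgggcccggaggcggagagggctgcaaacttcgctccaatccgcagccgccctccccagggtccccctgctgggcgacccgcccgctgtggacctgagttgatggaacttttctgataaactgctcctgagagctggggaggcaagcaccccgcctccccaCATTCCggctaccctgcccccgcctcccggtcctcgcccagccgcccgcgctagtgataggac
Amotl2: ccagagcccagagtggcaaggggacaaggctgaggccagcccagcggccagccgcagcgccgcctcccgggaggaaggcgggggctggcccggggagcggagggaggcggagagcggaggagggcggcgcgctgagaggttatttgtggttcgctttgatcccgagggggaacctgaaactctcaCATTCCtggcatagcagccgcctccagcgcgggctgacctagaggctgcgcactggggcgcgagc

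Several skeletal muscle genes rose in hearts with both viruses, some from no detected reads. Of 28 listed genes 17 passed the filter, and of these 5 rose and 0 fell, with a median log2 fold change of 1.48. The summed level of the list was 55.8 to 78 CPM in Controls and 382 CPM in each treated library. The myosin heavy chain genes of fast and perinatal skeletal fibres led this group. Myh1, the adult fast IIX myosin (chromosome 11, 67200052 to 67224575), had no count in any Control and 37.1 and 39 CPM in the treated libraries. Its 1919 counts there compare with 0 in Controls, which allows up to 3 counts over the 5 Controls (0.031 CPM, counting error only), so the level was at least 1228-fold higher (adjusted p = 2.10e-04). Myh2, the adult fast IIA myosin (chromosome 11, 67171027 to 67197517), measured 0, 0, 1.02, 0.101 and 0.308 CPM in Controls and 90.9 and 120.2 CPM in treated libraries. Controls 1 and 2 had no count, none exceeded 1.02 CPM, and the change was 8.25 ± 1.05 (SE, adjusted p = 0.00238). Myh8, the perinatal myosin (chromosome 11, 67277124 to 67308634), was at 4.65, 4.96, 2.65, 4.13 and 4.31 CPM in Controls and at 103 and 80.5 CPM in treated libraries. It was thus low but present in every Control, and it rose by a log2 fold change of 4.44 ± 0.39 (SE, adjusted p = 5.52e-06). Mybph, a myosin-binding protein (chromosome 1, 134193448 to 134201232), had counts in 1 Control (0.538 CPM in Control 4) and 15.6 and 13.6 CPM in treated libraries, a log2 fold change of 8.31 ± 1.17 (SE, adjusted p = 8.65e-04). Cacna1s, the voltage-sensing calcium channel of skeletal muscle, was at 0, 0, 0, 2.82 and 2.08 CPM in Controls and at 59.7 and 61.8 CPM in treated libraries, a log2 fold change of 6.38 ± 1.26 (SE, adjusted p = 0.0374).

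The first 4 of these calls held without any 1 library, without Controls 1 and 2 together (adjusted p = 0.00226, 0.0194, 0.0013 and 0.0214 in that order) and with a sex term. Without Controls 1 and 2 and YAP5SA 3, Myh8 passed, while Myh1 (adjusted p = 1.0), Myh2 (0.248) and Mybph (0.104) did not, and these 3 did not pass in female libraries only either. The Cacna1s call ended without any 1 library other than Control 3, 4 or 5 (adjusted p 0.0523 to 0.261) and was at 0.0793 without Controls 1 and 2. The median of the list was 0.91 without Controls 1 and 2, 0.36 without these and YAP5SA 3, 0.79 with a sex term and 4.22 in batch 1 alone. Not every skeletal gene was higher. Tnnt3, the fast skeletal troponin T, was at 8.84, 26.5, 10.2, 6.93 and 4.54 CPM in Controls and at 5.0 and 2.43 CPM, a difference of -1.91 ± 0.53 (SE, adjusted p = 0.0852), and Myl1, a fast myosin light chain, differed by a log2 fold change of -1.90 ± 0.74 (SE, adjusted p = 0.265). Myog, the myogenic regulator myogenin, had no count in Controls and 1.01 and 1.09 CPM in treated libraries but did not pass (adjusted p = 0.134). Casq1, the skeletal calsequestrin, differed by a log2 fold change of 1.28 (adjusted p = 0.186). Myh1, Myh2 and Myh8 lie in 1 cluster on chromosome 11 and are close paralogs, so the counting could split reads between them. Myh1, Myh2, Mybph and Cacna1s overlap genes on the other strand (Myhas, 9430073C21Rik, Adora1 and Gm37759), and the libraries are not strand-specific, so those reads cannot be assigned with certainty.

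The upstream windows of 3 of these genes are given because the genes rose and the windows carry a TEAD core or a MEF2 consensus. Each is again 250 bases before the RefSeq start on GRCm38.p6, and all 3 genes are on the plus strand. Capitals mark GGAATG in Myh1 (16 bases upstream of the start) and in Mybph (73 bases), and the MEF2 consensus TTATTTATAG in Myh1 (211 bases) and Myh8 (99 bases). The windows are chr11:67199852-67200101 for Myh1, chr11:67276874-67277123 for Myh8 and chr1:134193198-134193447 for Mybph. Myh1 and Myh8 share a run of 22 identical bases around the MEF2 match, while the Myh2 window (chr11:67170777-67171026), which shares a run of 21 bases with Myh1 elsewhere, holds neither motif.
Myh1: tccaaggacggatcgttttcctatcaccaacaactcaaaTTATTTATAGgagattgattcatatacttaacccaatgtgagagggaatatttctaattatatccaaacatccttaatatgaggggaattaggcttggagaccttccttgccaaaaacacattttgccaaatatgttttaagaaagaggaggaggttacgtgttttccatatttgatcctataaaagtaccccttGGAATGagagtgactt
Myh8: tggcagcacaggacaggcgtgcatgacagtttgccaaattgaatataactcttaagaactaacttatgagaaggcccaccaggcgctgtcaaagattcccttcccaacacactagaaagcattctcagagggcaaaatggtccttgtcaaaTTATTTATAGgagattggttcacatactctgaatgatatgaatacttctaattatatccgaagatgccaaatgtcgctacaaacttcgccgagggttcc
Mybph: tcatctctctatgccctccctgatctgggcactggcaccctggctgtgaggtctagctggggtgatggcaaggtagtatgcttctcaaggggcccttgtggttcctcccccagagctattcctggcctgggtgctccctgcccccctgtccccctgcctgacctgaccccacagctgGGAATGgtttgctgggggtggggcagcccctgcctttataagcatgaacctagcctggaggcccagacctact

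**Figure D2:**
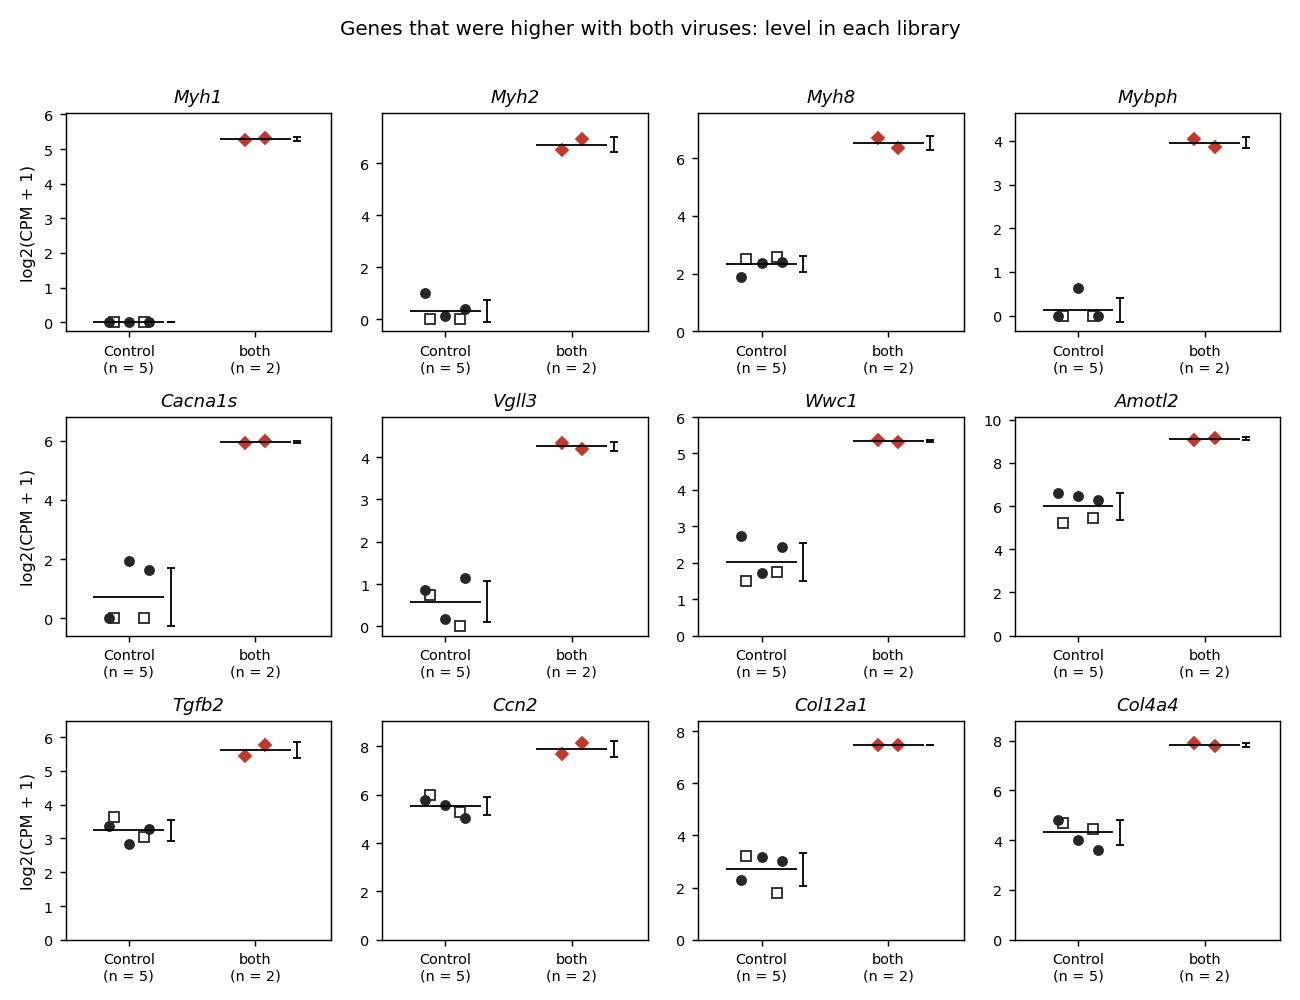
Levels of 12 genes that rose, as log2(CPM + 1) (vertical axis) in each library. Open squares are Controls 1 and 2 (batch 1), filled circles Controls 3 to 5 (batch 2) and red diamonds the 2 YAP5SA_MEF2A libraries; lines are group means and bars SD, and in every panel the diamonds lie above all Controls.

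Large rises outside the muscle and matrix genes, by the rule for named genes, were of low-level genes with varied roles. That rule took only genes with both treated libraries above all Controls. Cobl (cordon-bleu), an actin nucleator, was at 6.58, 6.78, 20.4, 12.9 and 11.4 CPM in Controls and at 163 and 190.1 CPM in treated libraries, a log2 fold change of 4.32 ± 0.32 (SE, adjusted p = 7.14e-07). Zbtb8b, a zinc-finger protein, measured 2.95, 2.74, 1.67, 2.96 and 1.96 CPM in Controls and 50.1 and 68.8 CPM in treated libraries, a log2 fold change of 4.26 ± 0.32 (SE, adjusted p = 7.14e-07). Eif1a, which encodes a translation initiation factor, went from 7.59, 7.43, 6.41, 5.95 and 5.24 CPM to 84 and 86.4 CPM, a log2 fold change of 3.71 ± 0.27 (SE, adjusted p = 7.14e-07). For all 3 the treated libraries stood far above every Control. Eif1a has a close copy on X, Eif1ax, which was not called (0.38, adjusted p = 0.769), and reads may be split between them. Krt7, a keratin of simple epithelia, rose from a Control range of 1.59 to 5.75 CPM to 81 and 76.2 CPM (log2 fold change 3.85 ± 0.50, adjusted p = 7.23e-04). Zim1, an imprinted zinc-finger gene beside Peg3 on chromosome 7, rose from a Control range of 1.83 to 4.74 CPM to 45.5 and 44.6 CPM (log2 fold change 3.68 ± 0.38, adjusted p = 2.46e-05). Map6, which stabilises microtubules, rose by a log2 fold change of 3.73 (adjusted p = 0.00599), Amhr2, the receptor for anti-Mullerian hormone, by 3.94 (adjusted p = 0.0131), and Spaca6, a protein of sperm-egg fusion, by 3.74 (adjusted p = 0.0121). The first 5 of these 8 calls held without any 1 library, without Controls 1 and 2, and with a sex term. The Map6 call held without any 1 library but not without Controls 1 and 2 (adjusted p = 0.111). Amhr2 was lost without Control 1 or either treated library (0.0654 to 0.0749), and Spaca6 without Control 1 or 2 or either treated library (0.0536 to 0.0872), and neither passed without Controls 1 and 2 (0.141 and 0.153). With a sex term Amhr2 did not pass (0.2).

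Of the genes that rose, 10 had no count in any Control and 30 had a Control mean under 1 CPM. A gene with no Control count could pass the filter only through virus-treated libraries, and most tested genes with no Control count were not called. Besides Myh1, 4 of the 10 are given, chosen after their values were seen and not by rank, and folds for them are lower bounds against 3 counts over the 5 Controls. Crybg2, a crystallin-domain protein, reached 4.89 and 3.73 CPM, at least 139-fold higher. Bmp8b, a bone morphogenetic protein, reached 3.84 and 4.05 CPM, at least 127-fold higher. Gabrq, a GABA receptor subunit, reached 4.07 and 3.49 CPM, at least 122-fold, and Tfap2e, an AP-2 transcription factor, 2.64 and 1.82 CPM, at least 72-fold. Adjusted p was 0.00926 for Crybg2, 0.00788 for Bmp8b, 0.0218 for Gabrq and 0.0273 for Tfap2e. The Crybg2 call alone of these 4 held without any 1 library. Bmp8b ended without YAP5SA 3 (0.0662), Gabrq without Control 1, YAP5SA 1 or 3 or either treated library (0.0539 to 0.133), and Tfap2e without Control 1, MEF2A 2 or 3 or either treated library (0.0517 to 0.164). None of the 4 passed with a sex term. Without Controls 1 and 2 Bmp8b passed (0.0315), while Crybg2 (0.052), Gabrq (0.0593) and Tfap2e (0.0607) did not.

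In the extracellular matrix list 3 of 45 genes rose and 1 fell, with a median log2 fold change of 0.15. Col12a1, a fibril-associated collagen, was at 8.39, 2.48, 3.88, 8.04 and 7.2 CPM in Controls and at 176 and 178 CPM in treated libraries, a log2 fold change of 5.12 ± 0.48 (SE, adjusted p = 7.75e-05). Col4a3 and Col4a4, neighbouring genes for basement membrane collagen chains that assemble with Col4a5, also rose. Col4a3 went from 2.15, 0, 3.39, 1.58 and 4.7 CPM to 98.1 and 86.9 CPM (log2 fold change 5.41 ± 0.79, adjusted p = 0.00661). Col4a4 went from 24.5, 20.9, 27, 15.3 and 11.2 CPM to 238 and 219.7 CPM (log2 fold change 3.44 ± 0.31, adjusted p = 7.57e-06). In none of the 3 did the groups overlap, and each passed without Controls 1 and 2 and with a sex term; the Col4a3 call ended without either treated library (adjusted p 0.0655 to 0.084). Col4a5 differed by a log2 fold change of 0.84 (adjusted p = 0.0516), Col4a1 by 0.10 (adjusted p = 0.938) and Col4a2 by 0.72 (adjusted p = 0.213). Lama4, a laminin chain of vessel walls, fell from a Control range of 154 to 237 CPM to 99.8 and 112 CPM (log2 fold change -1.09 ± 0.26, adjusted p = 0.0455), a call lost without Control 1, 2 or 4, MEF2A 2 or 3 or either treated library (0.0644 to 0.468), without Controls 1 and 2 (0.194) and with a sex term (0.213).

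Ligand genes led the TGF-beta and BMP list, in which 3 of 30 genes rose and 0 fell, with a median log2 fold change of 0.22. Besides Tgfb2, Tgfb3 went from 22.3, 20.1, 10.7, 15.9 and 13 CPM to 78.4 and 74 CPM, a log2 fold change of 2.12 ± 0.39 (SE, adjusted p = 0.00958). Inhba, the subunit of activin A, went from 2.15, 9.0, 3.83, 1.58 and 0.924 CPM to 30.5 and 28.4 CPM, a log2 fold change of 2.79 ± 0.52 (SE, adjusted p = 0.0105). Treated libraries were above all Controls for each, and both calls ended without either treated library (adjusted p 0.0655 to 0.089 for Tgfb3 and 0.0651 to 0.0852 for Inhba). Tgfb3 did not pass with a sex term (0.0858). Tgfb1 differed by a log2 fold change of 0.25 (adjusted p = 0.859), and the receptor genes Tgfbr1 by 0.10 (adjusted p = 0.892) and Tgfbr2 by -0.12 (adjusted p = 0.958). In the neuregulin and EGF receptor list 1 of 14 genes rose. It was Tgfa, an EGF receptor ligand, which went from 0, 0, 0, 0.706 and 0.0385 CPM to 3.14 and 2.84 CPM (log2 fold change 5.20 ± 1.25, adjusted p = 0.0469). That call rested on few counts and was lost without any 1 library other than Control 3 or 4 (0.0513 to 0.233), without Controls 1 and 2 (0.156) and with a sex term (0.0951).

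The actin cytoskeleton and focal adhesion list had 2 of 31 genes that rose, 0 that fell and a median of 0.57. Cnn2, a calponin, went from 62.6, 75.4, 81.9, 62.5 and 50.8 CPM to 232 and 212 CPM (log2 fold change 1.71 ± 0.30, adjusted p = 0.00534). Myh9, nonmuscle myosin IIA, went from 104, 136, 145, 166 and 154 CPM to 388 and 379.8 CPM (log2 fold change 1.50 ± 0.29, adjusted p = 0.0104). Both were above all Controls. Cnn2 was lost without YAP5SA_MEF2A 1 (adjusted p = 0.0527) and Myh9 without Control 1 or either treated library (0.0655 to 0.0852), and neither passed without Controls 1 and 2 (0.0882 and 0.166). With a sex term Myh9 did not pass (0.085).

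Growth and transcription factor genes held a few more rises. Of 15 imprinted and IGF growth genes 2 rose and 0 fell (median 0.12). Plagl1, an imprinted zinc-finger regulator of growth genes, went from 27.4, 42.5, 51.9, 45.6 and 48.6 CPM to 203 and 183 CPM (log2 fold change 2.13 ± 0.32, adjusted p = 0.00136). Peg3, a paternally expressed zinc-finger gene, went from 359.5, 381, 729, 350.1 and 353 CPM to 1160 and 1169 CPM (log2 fold change 1.58 ± 0.32, adjusted p = 0.0152), with Control 3 highest among Controls but still below both. The Plagl1 call held without any 1 library, with adjusted p = 0.0565 without Controls 1 and 2; the Peg3 call ended without Control 1 or 2 or either treated library (0.0533 to 0.0997) and without Controls 1 and 2 (0.195). Meis1, a homeodomain factor tied to postnatal cell-cycle exit of cardiomyocytes, rose by a log2 fold change of 1.16 (adjusted p = 0.0116), the 1 of 18 cardiac transcription factors called. Klf4, a zinc-finger factor, rose by a log2 fold change of 1.74 (adjusted p = 0.01), the 1 of 18 immediate early genes called, in a list with a median log2 fold change of 0.67. Each lost its call without Control 1 or either treated library (adjusted p 0.0686 to 0.211 for Meis1 and 0.0546 to 0.102 for Klf4), and neither passed without Controls 1 and 2 (0.147 and 0.0731). With a sex term Meis1 did not pass (0.0575).

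The 12 largest falls were taken only from genes with both treated libraries below all Controls. They began with Phf24, a PHD-finger gene best known from neurons. It was at 118, 82.9, 73.8, 138 and 128 CPM in Controls and at 14.3 and 18.1 CPM in treated libraries, a log2 fold change of -2.79 ± 0.35 (SE, adjusted p = 2.62e-04). No Control came near the treated libraries, and this was the 1 call among 18 named falls that held without any 1 library; it also passed without Controls 1 and 2 (0.00294) and with a sex term. Ttc39a, a tetratricopeptide protein, went from 49.6, 32.1, 38.1, 55.2 and 40.4 CPM to 7.6 and 10.2 CPM (log2 fold change -2.42 ± 0.45, adjusted p = 0.00841). Tesc (tescalcin), a calcium-binding regulator of sodium-proton exchange, went from 34.8, 24.4, 42.8, 27.1 and 30.4 CPM to 7.29 and 4.3 CPM (log2 fold change -2.23 ± 0.36, adjusted p = 0.00217). Upp1, uridine phosphorylase, went from 21.9, 27.9, 25.2, 23.6 and 21.4 CPM to 5.7 and 6.49 CPM (log2 fold change -2.11 ± 0.36, adjusted p = 0.0042). Tnnt1, the slow skeletal troponin T expressed in immature heart, went from 183, 132, 136, 227 and 215 CPM to 42.5 and 48.5 CPM (log2 fold change -1.96 ± 0.36, adjusted p = 0.00841). All 4 were below every Control and passed without Controls 1 and 2 and with a sex term, but ended without either treated library (adjusted p 0.0745 to 0.189 for Ttc39a, 0.0655 to 0.108 for Upp1 and 0.0974 to 0.164 for Tnnt1), or for Tesc without YAP5SA_MEF2A 2 (0.0896).

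The other 7 of the 12 were less firm. Rbp7, a retinol-binding protein, fell from Control levels of 31.7, 21.4, 6.86, 4.17 and 3.35 CPM, high in Controls 1 and 2, to 2.02 and 3.33 CPM, a log2 fold change of -2.75 ± 0.63 (SE, adjusted p = 0.0338). Without Controls 1 and 2 its adjusted p was 0.417. Mapt, the microtubule protein tau, fell from a Control range of 143 to 251 CPM to 55.5 and 95.7 CPM (log2 fold change -1.51 ± 0.30, adjusted p = 0.0142), and Tsnax (translin-associated factor X) from a Control range of 356 to 451 CPM to 108 and 193 CPM (log2 fold change -1.59 ± 0.35, adjusted p = 0.0284). Log2 fold changes were -1.94 (adjusted p = 0.0137) for the zinc-finger gene Zfp775, -1.85 (adjusted p = 0.0428) for the collagen gene Col24a1, -1.79 (adjusted p = 0.0431) for the kynurenine aminotransferase gene Kyat3 and -1.61 (adjusted p = 0.0272) for Cttnbp2, a cortactin-binding protein. Rbp7 was lost without Control 1 or 2 or either treated library (0.0634 to 0.42), Mapt without Control 1 or YAP5SA_MEF2A 1 (0.0662 to 0.358), Tsnax without YAP5SA_MEF2A 1 (0.436), Zfp775 without Control 1 or either treated library (0.0698 to 0.262) and Cttnbp2 without Control 2 or either treated library (0.0645 to 0.339). Col24a1 and Kyat3 each lost the call in 8 of the 14 such fits (0.0513 to 0.466 and 0.055 to 0.583), without Control 1, 2, 4 or 5, either treated library, MEF2A 2, and MEF2A 4 for Col24a1 or MEF2A 3 for Kyat3. Of these 7 only Tsnax passed without Controls 1 and 2 (0.0196), and only Col24a1 with a sex term (0.0411).

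**Figure D3:**
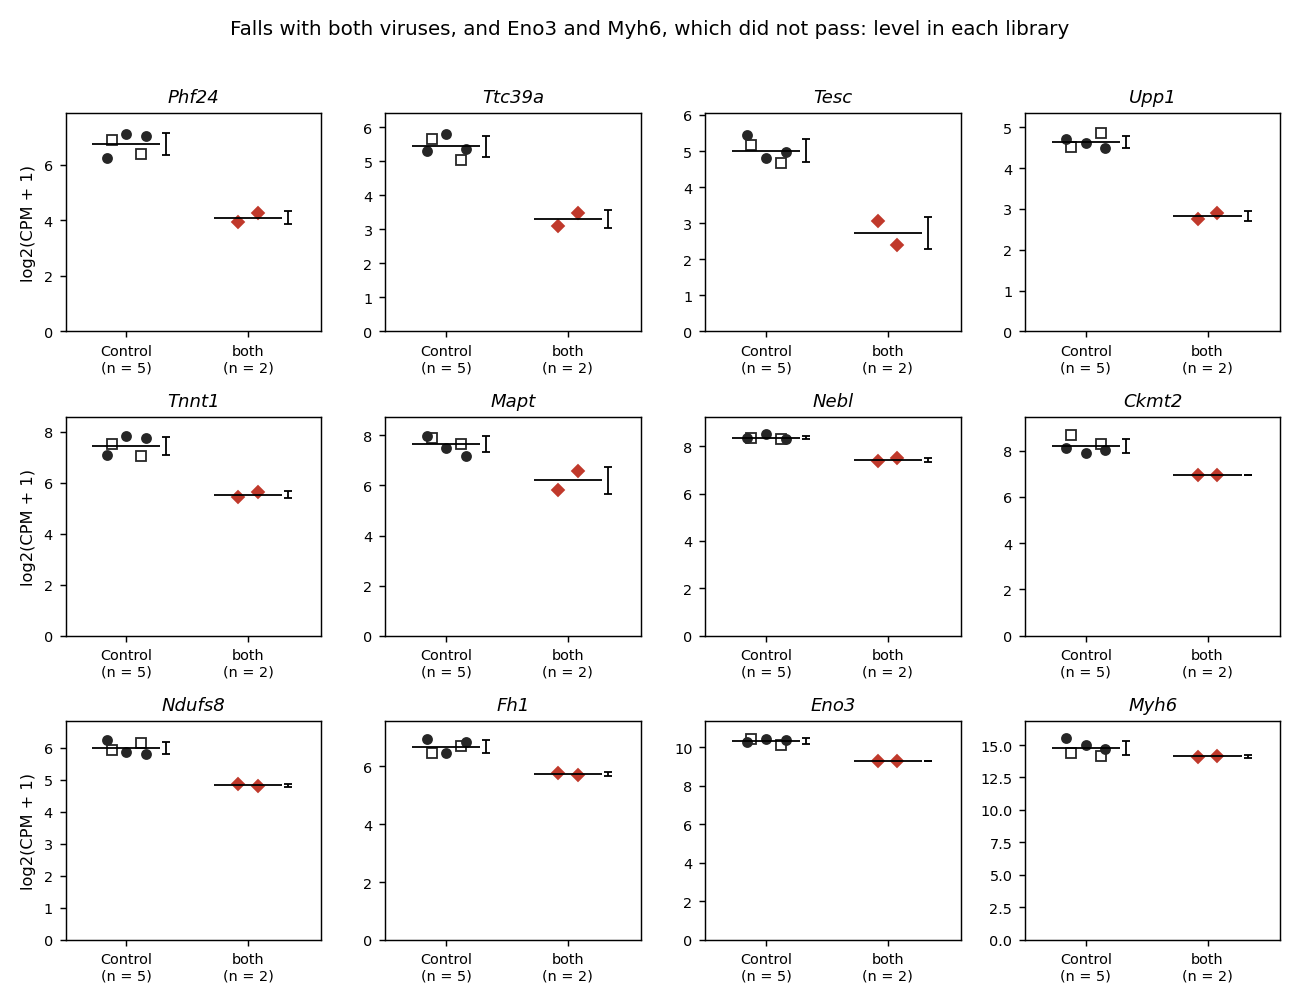
Levels of 12 genes lower in treated hearts, as log2(CPM + 1) (vertical axis) in each library, with the same symbols, means and SD bars as for the genes that rose. Phf24, Ttc39a, Tesc, Upp1, Tnnt1, Mapt, Nebl, Ckmt2, Ndufs8 and Fh1 passed the test; Eno3 and Myh6 did not.

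Contractile genes of the adult heart were mostly not called. In the sarcomere list 0 of 20 genes rose and 1 fell, with a median log2 fold change of -0.41. With library totals that median became 0.42, against 0.84 for all genes. In CPM 9 of the 20 lay below all Controls and 0 above, against 8.43% and 14.9% of all genes tested. Nebl (nebulette), a Z-disc protein, went from 329, 318, 319.6, 360.5 and 317 CPM to 165 and 179 CPM (log2 fold change -1.03 ± 0.25, adjusted p = 0.0473). Treated libraries were below all Controls, and the call ended without Control 1, 2, 4 or 5, MEF2A 2 or 3 or either treated library (adjusted p 0.0558 to 0.47). Myh6, the adult cardiac alpha-myosin, was at 21340, 18610, 47220, 32760 and 26260 CPM in Controls and 17000 and 18590 CPM in treated libraries (log2 fold change -0.52 ± 0.33, adjusted p = 0.545). Myh7, the fetal beta-myosin, was at 602, 430, 1536, 736 and 685 CPM and 915 and 899 CPM (log2 fold change 0.43 ± 0.37, adjusted p = 0.68). Titin, encoded by Ttn, differed by a log2 fold change of -0.68 (adjusted p = 0.363) and cardiac troponin T, encoded by Tnnt2, by -0.51 (adjusted p = 0.521). In the fetal and stress list 0 of 18 genes rose and 1 fell (Tnnt1), with a median log2 fold change of 0.23. The natriuretic peptide genes Nppa (-0.21, adjusted p = 0.932) and Nppb (-0.12, adjusted p = 0.974) overlapped Controls. Acta2, smooth muscle actin, was at 97.9, 77.6, 68.6, 57.7 and 46.9 CPM in Controls and at 297 and 298 CPM in treated libraries, above all Controls, a log2 fold change of 2.20 ± 0.60 (SE, adjusted p = 0.113). Acta1, skeletal actin, was at 56.3, 27, 3.47, 30.5 and 20.4 CPM and 5.7 and 6.37 CPM (log2 fold change -2.23 ± 1.30, adjusted p = 0.514).

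No gene was called among 27 of calcium handling and ion channels (median -0.13), 16 of the intercalated disc (-0.12) or 12 of the dystrophin complex (0.04). Cacna1c, the cardiac L-type calcium channel, was at 1660 to 2573 CPM in Controls and 1496 to 1764 CPM in treated libraries (log2 fold change -0.50 ± 0.30, adjusted p = 0.496). Atp2a2, the SERCA2 calcium pump, was at 1703 to 2574 CPM and 1968 to 2231 CPM (log2 fold change 0.13 ± 0.27, adjusted p = 0.891). Both groups overlapped for each. Of 15 MEF2 factors and coregulators 0 were called. The 24 muscle genes linked to MEF2 had a median log2 fold change of -0.58, or 0.29 with library totals against 0.84 for all genes. In CPM 11 of these 24 genes lay below all 5 Controls and 0 above, against 8.43% and 14.9% of all genes tested. Of the 24 genes 0 rose and 1 fell by the test. That fall was Ckmt2, the mitochondrial creatine kinase, from 407, 314, 274, 234 and 259.6 CPM to 123 and 122 CPM (log2 fold change -1.30 ± 0.29, adjusted p = 0.0309), which is also the 1 of 11 creatine kinase and ATP shuttle genes called. It was lost without Control 1 or 2, MEF2A 2 or 3 or either treated library (0.0513 to 0.328) and without Controls 1 and 2 (0.31). Xirp2, a Xin actin-binding protein, and Pgam2, the muscle phosphoglycerate mutase, just missed the threshold, with -1.99 (adjusted p = 0.0677) and -0.98 (adjusted p = 0.0629).

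Nuclear genes of energy metabolism had medians below 0, and few members passed. With library totals these medians turned positive but stayed below the 0.84 of all genes. Of 37 complex I genes 0 rose and 1 fell, with a median log2 fold change of -0.44 that was 0.13 without Controls 1 and 2. Their summed level was 2681, 2585, 2662, 2436 and 2578 CPM in Controls 1 to 5 and 1788 and 1620 CPM in treated libraries. The sum was thus lower than in the batch 2 Controls too. In CPM 18 of the 37 lay below all 5 Controls and 0 above, against 8.43% and 14.9% of all genes tested. Ndufs8, an iron-sulphur subunit of complex I, went from 60.8, 69.9, 75.8, 57.1 and 54.7 CPM to 28.2 and 26.9 CPM (log2 fold change -1.13 ± 0.24, adjusted p = 0.0178), below all Controls. It was lost without Control 1 or either treated library (adjusted p 0.0507 to 0.326) and without Controls 1 and 2 (0.165). No gene was called among 37 of complexes III to V, with a median log2 fold change of -0.41, or 0.33 without Controls 1 and 2. Their sum was 5579, 5387, 5412, 5110 and 5307 CPM in Controls 1 to 5 and 3843 and 3591 CPM in treated libraries. In CPM 17 of these 37 lay below all Controls and 0 above. In the TCA cycle list 1 of 24 genes rose and 1 fell (median -0.29), and in CPM 13 lay below all Controls and 1 above. Fh1, fumarate hydratase, fell from 87.4, 105, 123, 86.4 and 115 CPM to 54.3 and 50.7 CPM (log2 fold change -1.04 ± 0.24, adjusted p = 0.0338), and Pdha1, a subunit of pyruvate dehydrogenase on X, rose from 24.6, 24.4, 22.9, 30.8 and 36 CPM to 60.8 and 57 CPM (log2 fold change 1.05 ± 0.25, adjusted p = 0.0458). Fh1 was lost without Control 2, any 1 MEF2A library or either treated library (0.051 to 0.431). Pdha1 was lost without Control 1, 2, 3 or 4, MEF2A 1, 2 or 4 or either treated library (0.0515 to 0.402), without Controls 1 and 2 (0.314) and with a sex term (0.182).

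No gene was called among 28 of fatty acid uptake and oxidation, with a median log2 fold change of -0.27. Hadha, of the mitochondrial trifunctional protein, was at 405, 415, 979, 393 and 559 CPM in Controls and 492 and 472 CPM (log2 fold change -0.24 ± 0.44, adjusted p = 0.871), and Acadm, medium-chain acyl-CoA dehydrogenase, differed by a log2 fold change of -0.48 ± 0.40 (SE, adjusted p = 0.663). No glycolysis or lactate gene of 24 was called, with a median log2 fold change of -0.41. That median was 0.43 with library totals, against 0.84 for all genes. In CPM 11 of the 24 lay below all Controls and 2 above, against 8.43% and 14.9% of all genes tested. Eno3, muscle enolase, was at 1382, 1089, 1218, 1387 and 1316 CPM in Controls and at 628 and 628 CPM in treated libraries, below all of them, a log2 fold change of -1.10 ± 0.33 (SE, adjusted p = 0.113). Pfkm, muscle phosphofructokinase, was at 651 to 1342 CPM in Controls and 597 to 600.1 CPM (log2 fold change -0.69 ± 0.32, adjusted p = 0.347). The 13 mitochondrially encoded protein genes had a median log2 fold change of -3.53 with 0 called, and 0.74 without Controls 1 and 2. Among them mt-Co1, of complex IV, was at 486100, 640100, 22160, 19850 and 46800 CPM in Controls and 20980 and 18400 CPM in treated libraries (log2 fold change -3.70 ± 1.72, adjusted p = 0.39), so its level was high in Controls 1 and 2 alone.

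Cell-cycle genes did not pass in any list. The counts called were 0 of 20 G1 cyclins, kinases and inhibitors (median 0.17), 0 of 26 DNA replication genes (0.01) and 0 of 29 mitosis genes (-0.03). Mki67, the proliferation antigen Ki-67, was at 221, 155, 46.4, 359.7 and 195 CPM in Controls and 164 and 105 CPM in treated libraries (log2 fold change -0.32 ± 0.63, adjusted p = 0.886). Controls alone spanned the treated values. Cenpa, a centromeric histone, was at 69.5 to 225 CPM and 66.8 to 80.2 CPM (log2 fold change -1.13 ± 0.39, adjusted p = 0.187). Of 15 genes of the ATF4 stress response 0 rose and 1 fell. Ddit3 (CHOP), a stress-induced factor, went from 80.6, 79.8, 70.5, 62.2 and 54.7 CPM to 26.6 and 35.6 CPM (log2 fold change -1.30 ± 0.27, adjusted p = 0.016), a call lost without Control 1 or either treated library (adjusted p 0.0592 to 0.376) and without Controls 1 and 2 (0.145), while the median of the list was 0.34. Of the 18 falls named here, Phf24, Ttc39a, Tesc, Upp1, Tnnt1, Tsnax and Fh1 passed without Controls 1 and 2, and the first 5 of these and Col24a1 passed with a sex term. No call was made among 18 p53 targets (0.19), 17 NRF2 and antioxidant genes (-0.08), 27 serine, one-carbon and nucleotide synthesis genes (0.23), 8 pentose phosphate genes (-0.16) or 17 regulators of mitochondrial transcription (-0.03). The 40 ribosomal protein genes had 0 called and a median of -0.34, which was 0.83 without Controls 1 and 2.

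Markers of cell types were read for the makeup of the nuclei. In bulk RNA fewer cells of a type and less RNA per cell cannot be told apart. The summed cardiomyocyte markers were at 57410 to 100800 CPM in Controls and 45440 to 50800 CPM in treated libraries. Of these 12 genes 0 were called, with a median of -0.41, or 0.42 with library totals. Over all genes the median with library totals was 0.84. Endothelial markers had a median log2 fold change of -0.92 with 0 of 12 called (478 to 1217 CPM in sum in Controls and 436 to 469.7 CPM in treated libraries), and 0.08 with library totals. Egfl7, an endothelial secreted protein, was at 113 to 280.5 CPM in Controls and 90 to 108 CPM (log2 fold change -1.12 ± 0.28, adjusted p = 0.051). Fibroblast markers had a median log2 fold change of -0.34 (0 of 12 called), mural markers -0.42 (0 of 10), lymphocyte markers -0.75 (0 of 9), erythroid markers -1.12 (0 of 6), Schwann and neuronal markers -0.39 (0 of 5) and adipocyte markers -0.94 (0 of 5). Macrophage markers had a median log2 fold change of 0.16 with 0 of 13 called, or 1.89 without Controls 1 and 2 and -0.64 in batch 1 alone. Without Controls 1 and 2 the fibroblast (0.21), mural (0.06), erythroid (0.65) and Schwann and neuronal (0.58) medians turned positive. The cardiomyocyte (-0.55), endothelial (-0.47), lymphocyte (-0.32) and adipocyte (-2.66) medians stayed below 0 there. The macrophage genes Csf1r (0.01, adjusted p = 1.0) and Mrc1 (0.51, adjusted p = 0.755) were highest in Control 2.

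Epicardial markers had 1 of 9 genes that rose, 0 that fell and a median of 1.02, which was -0.08 in batch 1 alone. Their sum was 72.5 to 109.9 CPM in Controls and 115 to 157 CPM in treated libraries. Of the 9 genes, 5 had a log2 fold change above 0. In CPM 3 of the 9 lay above all Controls and 1 below, against 14.9% and 8.43% of all genes tested. The gene that rose was Wt1, the Wilms tumour factor of the epicardium, from 15.1, 14.2, 14, 10.2 and 10.9 CPM to 57.7 and 84.6 CPM (log2 fold change 2.36 ± 0.32, adjusted p = 4.73e-04), a call that held without any 1 library, without Controls 1 and 2 and with a sex term. Not every gene of this layer was higher: Upk3b differed by a log2 fold change of -0.04 (adjusted p = 0.989) and Msln by -0.47 (adjusted p = 0.625). The part of other cells in the rises of Wt1 and Krt7 was not tested.

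Control 2 set the immune lists apart. Interferon response genes had a median log2 fold change of -0.92 with 0 of 29 called and 2.46 without Controls 1 and 2, and MHC class I and antigen processing genes -1.30 with 0 of 14 called and 3.73 without them. Oasl2, an interferon-induced oligoadenylate synthetase-like gene, was at 6.46, 356, 3.31, 7.6 and 7.39 CPM in Controls and 10.3 and 34.9 CPM in treated libraries (log2 fold change -1.78 ± 2.02, adjusted p = 0.778). Only Control 2 stood above the treated libraries, and without Controls 1 and 2 the difference turned to 3.97 and passed (adjusted p = 0.0163). H2-D1, a class I heavy chain, was at 67.6, 1116, 25.7, 43.3 and 37.2 CPM and 52.6 and 241 CPM (log2 fold change -0.86 ± 1.74, adjusted p = 0.888), with the same library on top. No direction for these lists is therefore given.

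**Figure D4:**
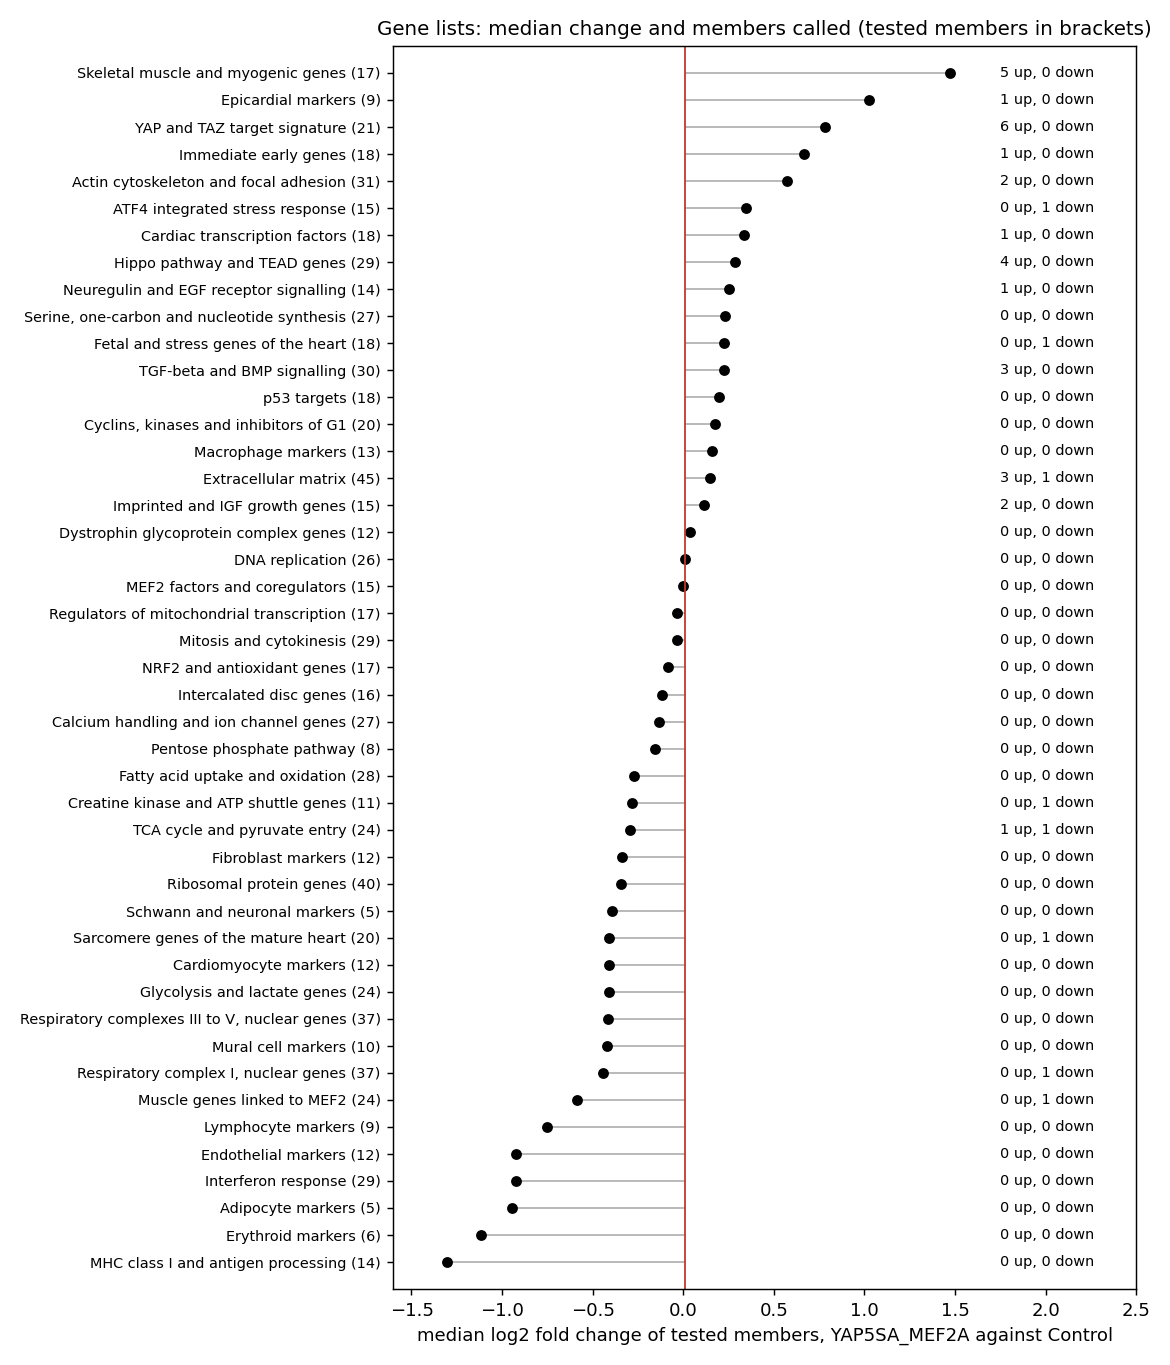
Median fitted log2 fold change of YAP5SA_MEF2A against Control (horizontal axis) for 45 gene lists (vertical axis, tested members in brackets), 1 point per list, with the numbers of members called higher and lower at the right and a red line at the median of all genes, 0.01. Skeletal muscle genes stand farthest right (5 rose) and MHC class I genes farthest left (0 called, and above 0 without Controls 1 and 2). The mitochondrially encoded list is not drawn. Of the 27 medians below 0 among all 46 lists, 23 were above 0 with library totals, where the median of all genes was 0.84.

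The single-virus groups gave context for these values, and all 3 contrasts share the same Controls. Myh8 differed from Control by 4.44 ± 0.39 with both viruses, 3.32 ± 0.33 with YAP5SA alone and -1.51 ± 0.33 with MEF2A alone. Amotl2 differed by 3.13 ± 0.42, 3.19 ± 0.35 and 0.07 ± 0.32 in the same order, and Col12a1 by 5.12 ± 0.48, 5.04 ± 0.42 and -0.40 ± 0.38. Vgll3 differed by 5.40 ± 0.73, 6.15 ± 0.64 and 1.73 ± 0.58. Among falls, Phf24 differed by -2.79 ± 0.35, -3.36 ± 0.30 and -0.13 ± 0.23. For these 5 genes the values with MEF2A alone lay nearer 0 than those with both viruses. In Myh8 and Col12a1, which rose with both viruses, the MEF2A value was below 0, without a call (edgeR adjusted p = 0.294 and 0.865).

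Set directly against YAP5SA alone, 0 genes were called by edgeR (0%), with 516 (2.87%) at an unadjusted p under 0.05. All 3 YAP5SA libraries were male and both YAP5SA_MEF2A libraries female, so sex moves with the added MEF2A virus in this contrast. Xist had 19687 and 16097 counts in YAP5SA_MEF2A 1 and 2 and 0, 16 and 1 in YAP5SA 1, 2 and 3. It was still not called, so a lack of calls here does not show a lack of difference. DESeq2 called 17 genes and limma-voom 1, and without YAP5SA 2 edgeR called 227. The difference of both viruses from YAP5SA was 1.12 ± 0.40 for Myh8, -0.06 ± 0.41 for Amotl2, 0.08 ± 0.48 for Col12a1 and -0.79 ± 0.51 for Ccn2 (SE), and none of these passed, which does not show that the groups are alike. Against MEF2A alone 417 genes were called (2.32%), 290 higher and 127 lower. Myh8 was 5.95 ± 0.43 higher there and Col12a1 5.52 ± 0.51 higher. That count fell to 90 without YAP5SA_MEF2A 1, 103 without YAP5SA_MEF2A 2 and 170 without MEF2A 2. The interaction, which asks whether both viruses together differ from the sum of each alone on the log scale, had 0 genes called by edgeR and by limma-voom, 441 (2.45%) at an unadjusted p under 0.05, and 22 by DESeq2. Without YAP5SA 2 edgeR called 11. The interaction holds the contrast with YAP5SA, so the difference in sex enters it as well.

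**Figure D5:**
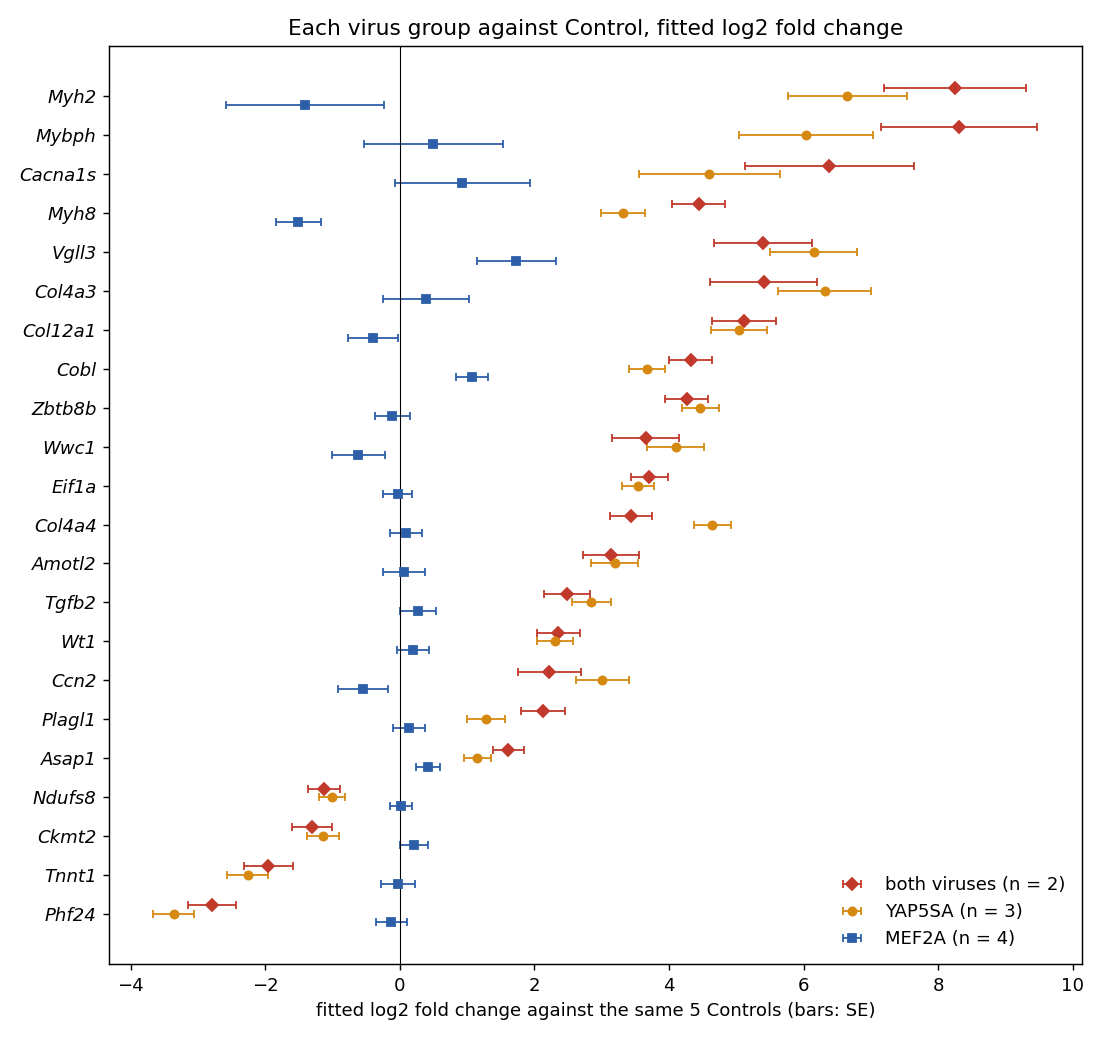
Fitted log2 fold change ± SE against the same 5 Controls (horizontal axis) for 22 genes (vertical axis), with both viruses, with YAP5SA alone and with MEF2A alone as 3 symbols. The 3 values of a gene share their Controls; for Myh8 they stand at 4.44, 3.32 and -1.51.

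Promoters of the called genes were searched for both motifs. RefSeq promoters (250 bases before to 50 after the start, GRCm38.p6) were found for 196 of the 244 called genes and for 12327 genes tested, 15704 windows in all. GGAATG, on either strand, was in at least 1 promoter of 44 of 171 genes that rose (25.7%), 6 of 25 that fell (24%) and 1858 of all 12327 (15.1%). A MEF2 consensus, on either strand, was in 7 of the 171 (4.09%), 1 of the 25 (4%) and 295 of all (2.39%). No window held overlapping matches of the pair. These are letter matches counted per gene, and genes with more RefSeq promoters have more chances to match.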

How the data were processed

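The authors deposited one table holding raw gene-level read counts (whole numbers, Ensembl identifiers) of the 14 libraries; per the submitters' processing notes STAR, edgeR, limma and GRCm38 were used, with versions and the strand setting of the counting not given in the sources used here. Per the labels' protocols the libraries were polyA-selected and non-directional, so reads of overlapping genes on opposite strands cannot be told apart; besides the genes marked in the text this touches Tgfb2, Ccn2, Crim1, Fat1, Krt7, Col4a3, Tgfb3, Meis1, Zfp775, Kyat3, Cttnbp2, Ckmt2, Pdha1, Ddit3, Bmp8b and Crybg2. Symbols and coordinates came from GENCODE (vM21) for 54409 of 54446 genes (chromosome, start and end are 1-based, GRCm38). Promoters came from RefSeq (GRCm38.p6).

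From the deposited counts, genes with too few reads were removed (filterByExpr, minimum count 10, total 15), TMM factors were computed, and group plus batch was fitted over all 14 libraries (9 residual degrees of freedom) with edgeR 4.0.16 in R 4.3.3 (quasi-likelihood F-test, robust, biological coefficient of variation 0.503). Calls used a threshold of 0.05 on Benjamini-Hochberg adjusted p over 17987 genes. Batch, sex (from Xist and Y-linked counts) and totals are described with the results. Alternatives were limma 3.58.1, DESeq2 1.42.0, other scalings, filters, terms and subsets, and leaving out each library. No 2 libraries of a group agreed within sampling noise, and replicate numbers were not shown to pair the groups. The test was checked on simulated data.

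Named genes were Yap1 and Mef2a, the 12 largest called rises and falls with a mean log2 CPM of at least 1 over the 7 libraries and no overlap between groups (excluding clone names, Xist and Y-linked genes), and, per list, the called genes (at most 3, by p) or, without a call, the 2 members of highest level; of the latter a part is given. The value of 1 gene under this rule is not reported here. Called list members beyond the 3, the genes with no Control counts, and uncalled genes given for contrast were chosen after their values were seen. The 46 lists (892 genes, 859 tested) and the comparison itself were chosen with earlier results of these data known. Levels of single genes are not compared between genes, and single-cell makeup was not analysed here.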

Additional observations from a re-analysis of the deposited data

Results flagged for a closer look

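Among 99 values checked in the 5 Controls, 15 genes had 1 library far from the other 4 by Dixon's ratio; chance flags about 1 in 20 groups. Control 2 was highest for Axl (164.2 CPM), Tnnt3 (26.47), Oasl2 (355.9), H2-D1 (1116), Csf1r (60.9) and Mrc1 (33.52), that is, for genes of interferon response, antigen presentation and macrophages among others. Control 3 was highest for Ankrd1 (2595 CPM), Myh7 (1536), Peg3 (728.6), Nppa (16.65) and Hadha (978.6). Control 4 was highest for Mybph (0.5379 CPM, with the other 4 at 0), Tgfa (0.706) and Nebl (360.5), and Control 1 for Nppb (235.7). Of these 15 genes Mybph, Tgfa, Peg3 and Nebl were called in the comparison, and the Mybph call held without any 1 library.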

How the results depend on the processing

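The count of 244 changed genes against Control stayed within 1.5 times under RLE scaling (255), upper-quartile scaling (245) and a filter at 1 CPM in 2 libraries (258). It was 412 with library totals, 934 with no filter on low counts, 470 with no batch term, 130 with a sex term, 1091 in the 7 libraries alone with batch, 1395 in batch 1 alone, 138 without Controls 1 and 2, 43 without these and YAP5SA 3, 461 in female libraries only (chosen after seeing the data), 818 with DESeq2, 420 with limma-voom and 874 with sample quality weights; leaving out 1 library gave 89 to 361. With the replicate block in place of batch, 187 genes were called, 171 higher and 16 lower; the numbers are not shown to pair the groups (correlation of same-numbered differences 0.0459). Against MEF2A, 417 became 1103 with no filter, 207 with the replicate block, 644 without Controls 1 and 2, 834 with a sex term and without them and 2826 in female libraries (both chosen after seeing the data), 1025 with DESeq2, 634 with limma-voom, 4102 with quality weights and 90 to 672 without 1 library. Against YAP5SA, 0 became 164 with no filter, 6 in batch 1, 17 with DESeq2, 1 with limma-voom, 50 with quality weights and 0 to 227 without 1 library. For the interaction, 0 became 61 with no filter, 1 in batch 1, 22 with DESeq2 and 0 to 11 without 1 library. The mitochondrial share differed by -58.4 points in batch 1 and by -31.4 to -15.9 without 1 library. Oasl2 reversed from -1.78 to 3.97 without Controls 1 and 2, to 4.36 without these and YAP5SA 3 and to 4.01 with a sex term and without them. Of 59 called genes named, 21 held without any 1 library, 27 without Controls 1 and 2, 12 without these and YAP5SA 3, 33 with a sex term, 57 in batch 1 (not Ccn2 or Tgfb3), 39 with library totals and 44 with the replicate block. The cause of these changes was not tested. Where libraries were left out, the fit also had fewer of them. With 2 treated libraries, all in batch 1, low counts limit the genes under 1 CPM most.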
